A study of Mus musculus with 16 samples.

Results

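Skeletal muscle was followed by 10 of its genes through 16 biopsies of mouse melanoma, namely Acta1, Actn3, Ckm, Myh1, Myh2, Myh4, Mylpf, Tnnt3, Tnni2 and Tnnc2. They were found on the array by gene name among the probes that are not controls, which gave 12 probes of 55681, and all 10 genes were among the 21985 genes and transcripts tested. Their levels describe how far muscle RNA in the biopsies varied between tumours and between groups. The study, on resistance of melanoma to BRAF inhibitors, had 4 groups of 4 biopsies each. They were untreated tumours, tumours after 4 days and after 60 days of treatment, and tumours labelled as treated for 120 days, which the titles call resistant. The drug, the strain, the genotype and the site of the tumours are not given in the sources used here. RNA of each biopsy was labelled with Cy5 and hybridised on an Agilent array together with Cy3-labelled Universal Mouse Reference, a pool of mouse RNA that served as the common standard. Every value below is a log2 ratio of Cy5 over Cy3 unless stated, so that a value of 0 means equal signal of tumour and standard. Nothing in the labels says whether the 4 biopsies of a group came from separate animals, so p-values measure the spread between these biopsies. The titles carry codes whose meaning is not given, and some tumours share one. Untreated tumours 1 to 3 do, as do tumours 1 and 2, and tumours 3 and 4, of the 60-day and of the resistant group. Each 4-day tumour has its own. The 4-day codes begin with STS and all others with RG, so a difference of the 4-day group cannot be told apart from one between these series. A fit with the code as a random block is given where it ends a call.

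Fast skeletal muscle fibres contract when myosin heavy chains pull on actin filaments, and the troponin complex switches that pull on when calcium binds to it. Myosin heavy chain isoforms define the fibre types, with Myh4 marking the fastest fibres, Myh1 and Myh2 the other fast fibres and Myh7 the slow ones. Adult muscle cells express these genes at very high levels while tumour cells, keratinocytes and most stroma do not. A small piece of muscle can therefore be read from a bulk biopsy. Where such muscle lay in these biopsies, in the skin or beside the tumour, was not tested.

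The 3 myosin genes Myh2, Myh1 and Myh4 lie next to each other on chromosome 11. Their promoters are shown because the genes varied together over the 16 tumours, Myh4 less closely than the others. Pearson r was 0.976 for Myh1 with Myh2, 0.807 for Myh1 with Myh4 and 0.787 for Myh2 with Myh4. Each line gives the 250 bases before the start of the gene on the + strand, from RefSeq on GRCm38.p6. Capitals mark the longest run of bases that the 3 promoters share, which has 20 bases and begins 165 bases before the start of Myh1, 130 before that of Myh2 and 163 before that of Myh4.
Myh1, chr11:67199852-67200101: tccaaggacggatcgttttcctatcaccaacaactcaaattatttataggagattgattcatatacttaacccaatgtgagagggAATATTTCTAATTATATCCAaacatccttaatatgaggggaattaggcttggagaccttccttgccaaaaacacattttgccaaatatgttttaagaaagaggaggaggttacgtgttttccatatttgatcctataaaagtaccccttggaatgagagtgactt
Myh2, chr11:67170777-67171026: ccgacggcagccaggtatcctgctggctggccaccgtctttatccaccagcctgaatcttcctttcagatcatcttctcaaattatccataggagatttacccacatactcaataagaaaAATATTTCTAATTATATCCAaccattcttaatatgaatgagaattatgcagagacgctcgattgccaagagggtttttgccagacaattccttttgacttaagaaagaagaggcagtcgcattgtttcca
Myh4, chr11:67237562-67237811: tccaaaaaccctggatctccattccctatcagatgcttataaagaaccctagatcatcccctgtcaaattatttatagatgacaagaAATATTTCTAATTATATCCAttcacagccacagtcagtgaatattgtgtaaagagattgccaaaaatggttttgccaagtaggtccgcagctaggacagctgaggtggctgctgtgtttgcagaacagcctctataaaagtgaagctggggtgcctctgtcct
Among 32851 mouse promoters of the same length the run was found, on either strand, in 3, which are these 3 genes. It was picked from these 3 promoters, so its presence there was given in advance. Any given run of 20 bases is rare, so its absence elsewhere says nothing of muscle promoters. A promoter was at hand for 7 of the 10 genes. The MEF2 motif, which binds the MEF2 factors of muscle, was searched by its usual form on both strands and occurred in 2 of the 7, Myh1 and Myh4, and in 2.92% of all promoters. The CArG box, bound by serum response factor, occurred in 2 of the 7, Acta1 and Myh4, and in 1.47% of all promoters. The E-box CANNTG, bound by MyoD and related factors, occurred in 5 of the 7 and in 66.2% of all promoters. These counts describe letters in a window and say nothing of whether a factor binds there. The promoter of Acta1, on the minus strand of chromosome 8, is printed with its CArG box in capitals, since Acta1 had the widest range of the 10 genes.
Acta1, chr8:123894776-123895025: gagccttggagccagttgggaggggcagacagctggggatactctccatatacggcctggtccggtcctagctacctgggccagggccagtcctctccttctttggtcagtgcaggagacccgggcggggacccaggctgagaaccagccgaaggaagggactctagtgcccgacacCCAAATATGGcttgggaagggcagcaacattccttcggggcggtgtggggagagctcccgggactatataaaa

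Tnnt3, the fast troponin T, was read by 2 probes of 60 bases that overlap, and the 27 bases they share are in capitals.
First Tnnt3 probe: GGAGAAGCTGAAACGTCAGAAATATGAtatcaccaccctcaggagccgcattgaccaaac
Second Tnnt3 probe: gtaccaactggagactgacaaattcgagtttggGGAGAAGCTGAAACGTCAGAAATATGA
On mm9, the build of the array, the second probe lies at 149698467 to 149698526 of chromosome 7, and the first runs from 149698500 to 149700262, a span longer than the probe itself, so it crosses a splice junction. The second was the brighter and is used below. Its log2 ratio ran from -0.44 to 4.13 over the 16 tumours and that of the first from -0.23 to 4.60. Mylpf also had 2 probes, and each other gene had 1. The longest run shared by probes of 2 different members was 10 bases, between Myh1 and Myh4.

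All 16 arrays were read on 2 slides, with 2 arrays of every group on each. Slide 1 carried tumours 3 and 4 of every group and slide 2 tumours 1 and 2. Per array, 49.0% to 54.2% of the probes were above background in Cy5, and no spot of the 10 muscle genes was saturated. The mean of 10 pigment cell genes was above the standard in all 16 tumours, from 1.24 to 3.48. The mean of 12 hair follicle genes was too, from 1.64 to 5.38. Pigment genes are therefore no check of the label melanoma, and whether tumour or skin gave their signal was not tested. The array of resistant tumour 1 stood apart, with a median correlation of 0.698 with the other arrays, against 0.836 to 0.916 for the other 15. It was not among the tumours low in muscle RNA described next.

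Muscle RNA differed far more between tumours of a group than between groups. For 9 of the 10 genes, the tumour with the most had 13.4 to 37.3 times the ratio of the tumour with the least. Averaged over the 10 genes, the log2 ratio was 0.09 in 60-day tumour 3, 0.94 in untreated tumour 3, 1.56 in resistant tumour 4 and 1.68 in 4-day tumour 2. A gap of 1.20 separated these 4 tumours, 1 from each group, from 60-day tumour 1 at 2.88, and the other 11 lay between 3.16 and 4.03. In bulk tissue, fewer muscle fibres in a biopsy and less muscle RNA per fibre cannot be told apart.

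**Figure D1:**
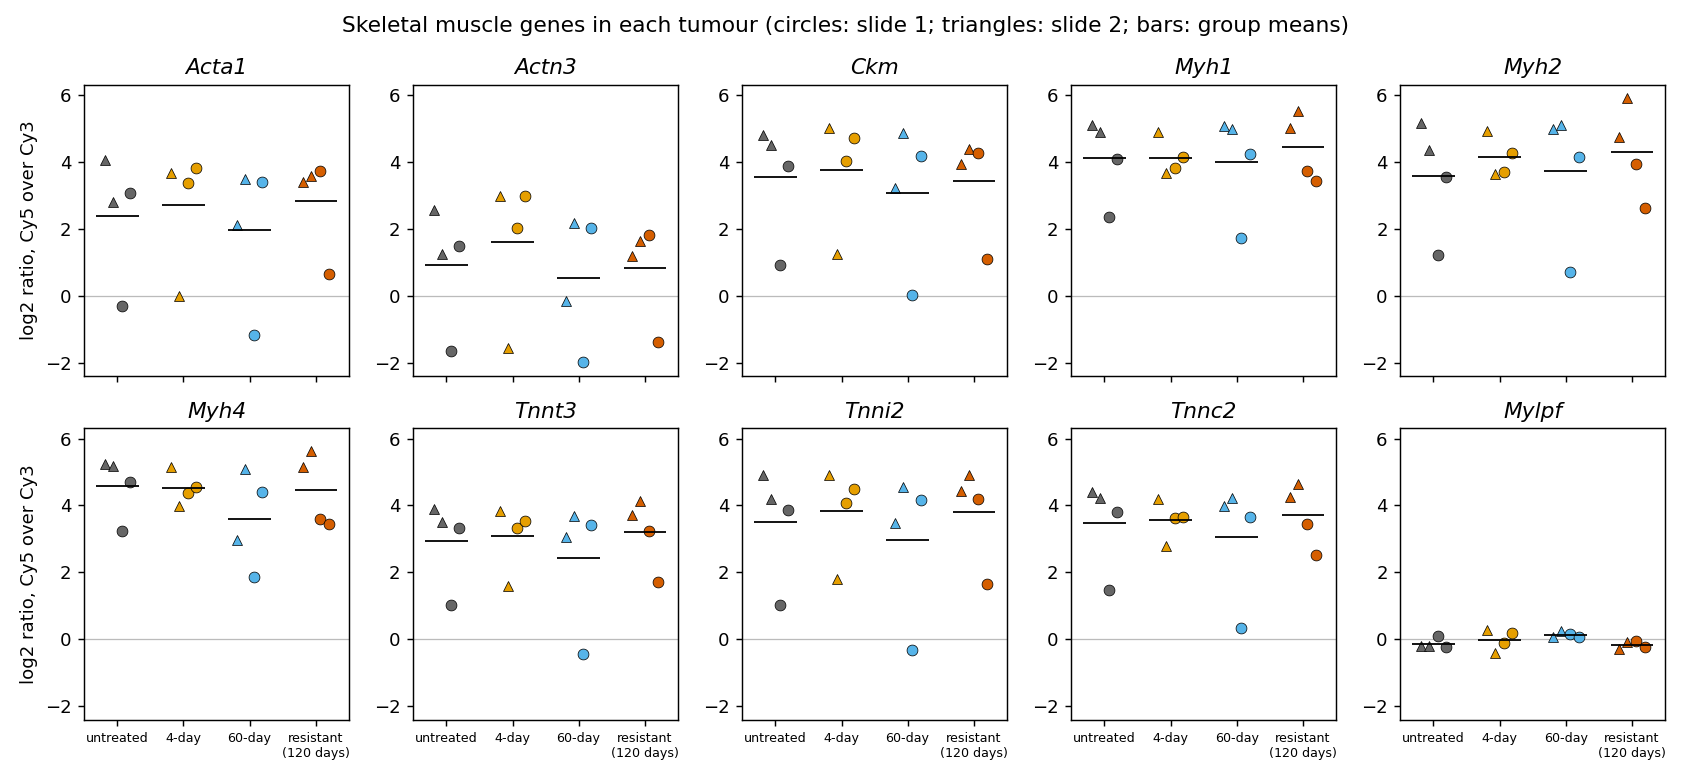
Log2 ratio of Cy5 over Cy3 (vertical axis) of each of the 10 muscle genes in the 4 groups (horizontal axis), with 1 point per tumour, circles for slide 1, triangles for slide 2 and bars for group means. In 9 of the genes 1 tumour of each group lies well below or at the bottom of its group, and Mylpf stays within a range of 0.67.

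Acta1, the skeletal actin of the thin filament, was at 4.04, 2.80, -0.32 and 3.06 in untreated tumours 1 to 4, at 3.68, 0.01, 3.37 and 3.83 in the 4-day tumours, at 2.11, 3.49, -1.18 and 3.40 in the 60-day tumours and at 3.39, 3.58, 3.72 and 0.66 in the resistant tumours. Each group held 1 tumour far below the rest, and all 4 groups overlapped. The range over the 16 tumours was 5.22 on the log2 scale, or 37.3-fold.

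Ckm, the creatine kinase that recharges ATP in muscle, was at 4.82, 4.51, 0.93 and 3.88 in untreated tumours, at 5.01, 1.24, 4.03 and 4.72 in 4-day tumours, at 3.21, 4.86, 0.03 and 4.17 in 60-day tumours and at 3.95, 4.39, 4.26 and 1.11 in resistant tumours. The low tumours were the same 4 as for Acta1. The Ckm spot was not above background in Cy5 in 60-day tumour 3, and in Cy3 it was above background on 11 of the 16 arrays.

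Actn3, the alpha-actinin of the Z-disc of the fastest fibres, was at 2.57, 1.24, -1.63 and 1.50 in untreated tumours, at 2.99, -1.56, 2.02 and 2.98 in 4-day tumours, at -0.16, 2.17, -1.97 and 2.04 in 60-day tumours and at 1.20, 1.64, 1.82 and -1.38 in resistant tumours. Actn3 was below the standard in 5 of 16 tumours, against 2 or fewer for each of the 8 members other than Actn3 and Mylpf. These 5 were the 4 low tumours and 60-day tumour 1.

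The troponin subunits behaved like Acta1. Tnni2, the inhibitory subunit of fast troponin, ran from -0.30 in 60-day tumour 3 to 4.92 in resistant tumour 2, with a median of 4.18. Tnnt3, the subunit that ties troponin to tropomyosin, ran from -0.44 to 4.13 between the same 2 tumours. Tnnc2, the subunit that binds calcium, ran from 0.34 to 4.63, again between those 2.

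Among the myosin heavy chains, Myh4 was at 5.24, 5.17, 3.25 and 4.70 in untreated tumours, at 5.15, 3.99, 4.37 and 4.55 in 4-day tumours, at 2.98, 5.08, 1.88 and 4.39 in 60-day tumours and at 5.16, 5.62, 3.58 and 3.44 in resistant tumours. Myh1 was at 5.10, 4.88, 2.35 and 4.10 in untreated tumours, at 4.89, 3.68, 3.82 and 4.13 in 4-day tumours, at 5.07, 4.98, 1.72 and 4.25 in 60-day tumours and at 5.03, 5.52, 3.74 and 3.44 in resistant tumours. Myh2 ran from 0.70 in 60-day tumour 3 to 5.90 in resistant tumour 2. In 4-day tumour 2 the myosin ratios stayed near their medians over the 16 tumours while others were far below theirs. Myh4 was at 3.99 there, with a median of 4.47, Myh1 at 3.68, with a median of 4.19, and Acta1 at 0.01, with a median of 3.38. In the normalized Cy5 channel Myh4 was at 10.3 in this tumour and 16.6 in 4-day tumour 1, so the channel differed more than the ratio.

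Mylpf, the phosphorylatable fast light chain, was dim, and its 2 probes differed. The brighter, used below, ran from -0.40 in 4-day tumour 2 to 0.28 in 4-day tumour 1, was below the standard in 9 of 16 tumours and had r = 0.0251 with the mean of the 9 other members. The dimmer, measured in 15 tumours, was at -0.04 to 0.08 in the 4 low tumours and at -0.03 to 1.13, with a median of 0.36, in the 11 others (r = 0.657 with that mean). Each of its probes was above background in Cy5 on 6 of the 16 arrays. The 2 probes begin at bases 69 and 140 of their transcripts, whereas the probes of the other 9 genes begin between bases 607 and 6023. Whether the position of the probes bears on the dim signal was not tested.

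Set against all genes tested, the 9 other members were among the most variable. The standard deviation over the 16 tumours was 1.03 for Myh4, the lowest of the 9, and 1.72 for Actn3, the highest, and 97.2% to 99.8% of all genes had a smaller one. The median gene had a standard deviation of 0.28. Differences between the 4 groups made up 2.43% of the variance of Ckm, 2.50% of that of Myh1, 4.34% of that of Acta1 and 16.9% of that of Myh4, the highest of the 9. For the median gene of the array this share was 21.6%, and for Mylpf it was 33.6%. With 4 groups of 4 tumours such a share lies well above 0 even where groups do not differ. It therefore does not by itself show a group effect.

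The spread did not lie in the tumour channel alone. The standard is 1 RNA pool per the labels, and the Cy3 signal of the median gene had a range of 0.38 on the log2 scale over the 16 arrays, yet that of Myh4 had a range of 5.78. Cy3 ranges were 5.18 for Myh1, 4.02 for Tnnc2, 3.71 for Myh2 and 3.41 for Tnnt3, each larger than in at least 99.29% of genes. They were 1.87 for Tnni2, 1.85 for Ckm and 1.67 for Acta1. In Actn3 the Cy3 range was 0.30, smaller than that of the median gene.

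The Cy3 signal was high on the arrays where Cy5 was high. Across the 16 arrays the correlation of the 2 channels, which share an array and a spot, was 0.965 for Myh4, 0.918 for Tnnt3 and 0.916 for Tnnc2, and for the other 6 genes apart from Mylpf it lay between 0.699 and 0.859. The ratio is therefore smaller than the change in the tumour channel: the Cy5 range was 8.18 for Myh4, 7.33 for Tnnc2, 7.27 for Tnnt3, 6.78 for Myh1 and 5.25 for Actn3. In all, 450 genes, or 2.05% of those tested, had a Cy3 range of 2 or more, and 5 of them were members. Why the channel of the common standard moved with the tumour channel was not tested. By the normalized Cy5 channel the same 4 tumours had the lowest mean of the 9 genes other than Mylpf. It was 7.73 in 60-day tumour 3, 8.88 in untreated tumour 3, 9.47 in 4-day tumour 2 and 9.63 in resistant tumour 4. Next came 11.2 in 60-day tumour 1.

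**Figure D2:**
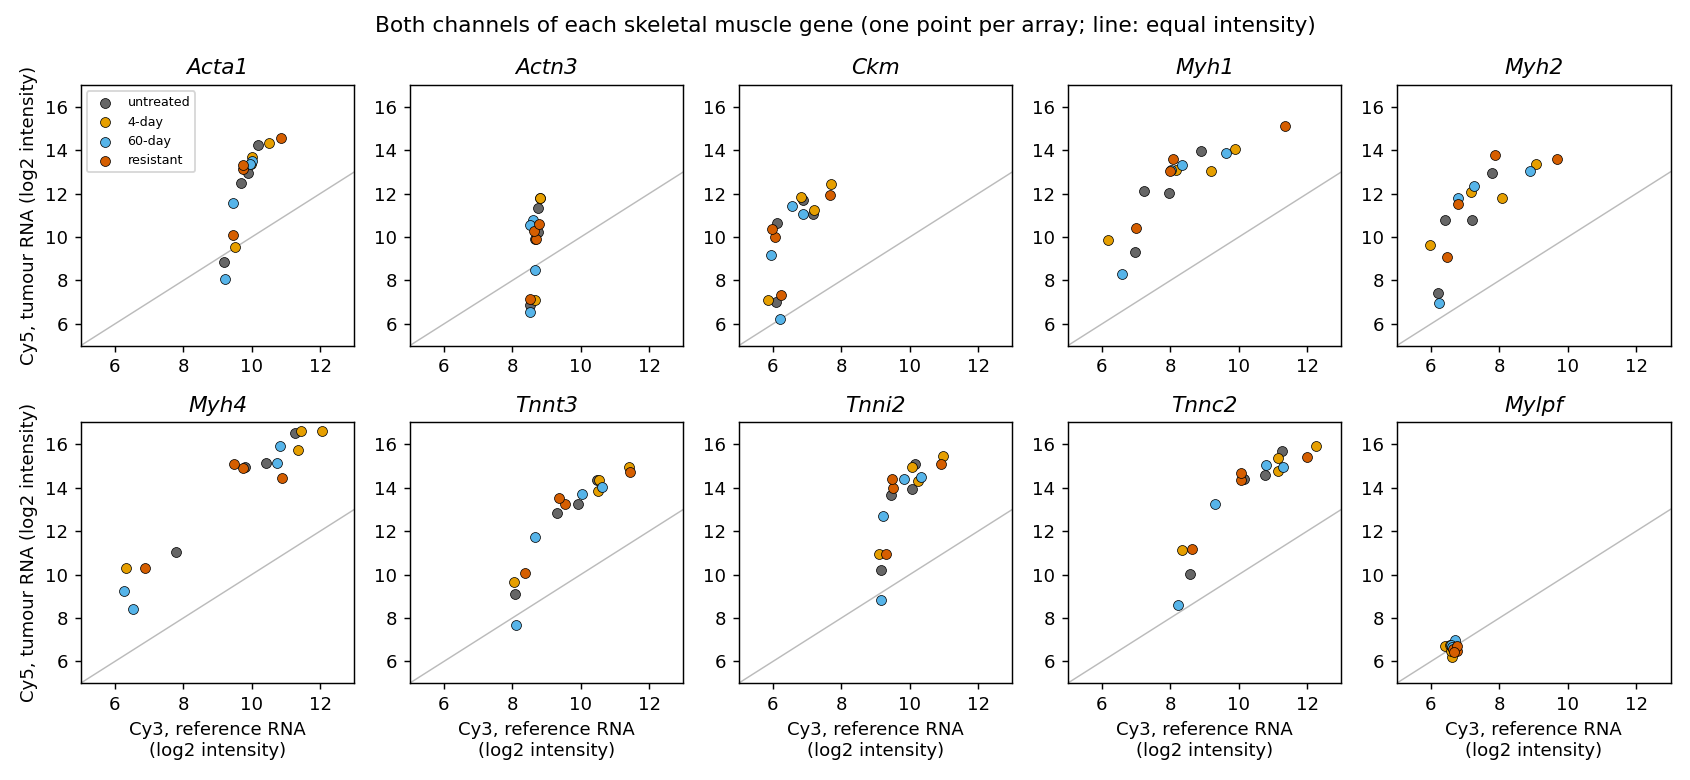
Log2 intensity of the tumour channel Cy5 (vertical axis) against that of the reference channel Cy3 (horizontal axis) for each muscle gene, with 1 point per array coloured by group and a line of equal intensity. Cy3 spans 5.78 for Myh4 and 0.30 for Actn3, and it is highest where Cy5 is high.

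None of the 10 members passed the test between groups. In 4-day against untreated tumours 0 of 10 passed an adjusted p of 0.05 in limma, where 1.34% of all genes did. In 60-day against untreated tumours it was 0 of 10, with 0.819% of all genes, and in resistant against untreated tumours 0 of 10, with 0.0182%. In 60-day against 4-day tumours 0 of 10 passed, with 0% of all genes, in resistant against 4-day tumours 0 of 10, with 0.00455%, and in resistant against 60-day tumours 0 of 10, with 0%. At an unadjusted p of 0.05 the count was also 0 of 10 in each of the 6 comparisons, taken in the same order, where 16.7%, 18.7%, 9.52%, 1.87%, 8.19% and 5.67% of all genes passed.

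The intervals were wide. Acta1 averaged 2.72 ± 1.82 in 4-day tumours and 2.40 ± 1.89 in untreated tumours (SD, n = 4 each), a limma difference of 0.32 with a 95% interval from -2.23 to 2.88 and an adjusted p of 0.951. In 60-day tumours it averaged 1.96 ± 2.18, a difference of -0.44 from untreated tumours (interval -2.997 to 2.11, limma adjusted p 0.901). In resistant tumours it averaged 2.84 ± 1.46, a difference of 0.44 (interval -2.12 to 2.99, limma adjusted p 0.951). A change of Acta1 of 4-fold in either direction lies inside each of these intervals.

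Myh4 showed the largest difference from untreated tumours of any member, in the 60-day group. It averaged 3.58 ± 1.44 in 60-day tumours and 4.59 ± 0.93 in untreated tumours (SD, n = 4 each), a limma difference of -1.01 (interval -2.46 to 0.44, adjusted p 0.46). Mylpf had the lowest adjusted p of the 60 differences, 0.32, at 0.14 ± 0.10 in 60-day tumours and -0.13 ± 0.16 in untreated tumours. It was also the member whose values did not overlap between resistant tumours, from -0.28 to -0.06, and 60-day tumours, from 0.06 to 0.26 (limma adjusted p 0.867), as was the case for 3.63% of all genes. In the 5 other comparisons 0 of the 10 members separated, where 7% of all genes did in 4-day against untreated, 13.8% in 60-day against untreated, 4.28% in resistant against untreated, 1.68% in 60-day against 4-day and 2.77% in resistant against 4-day tumours.

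**Figure D3:**
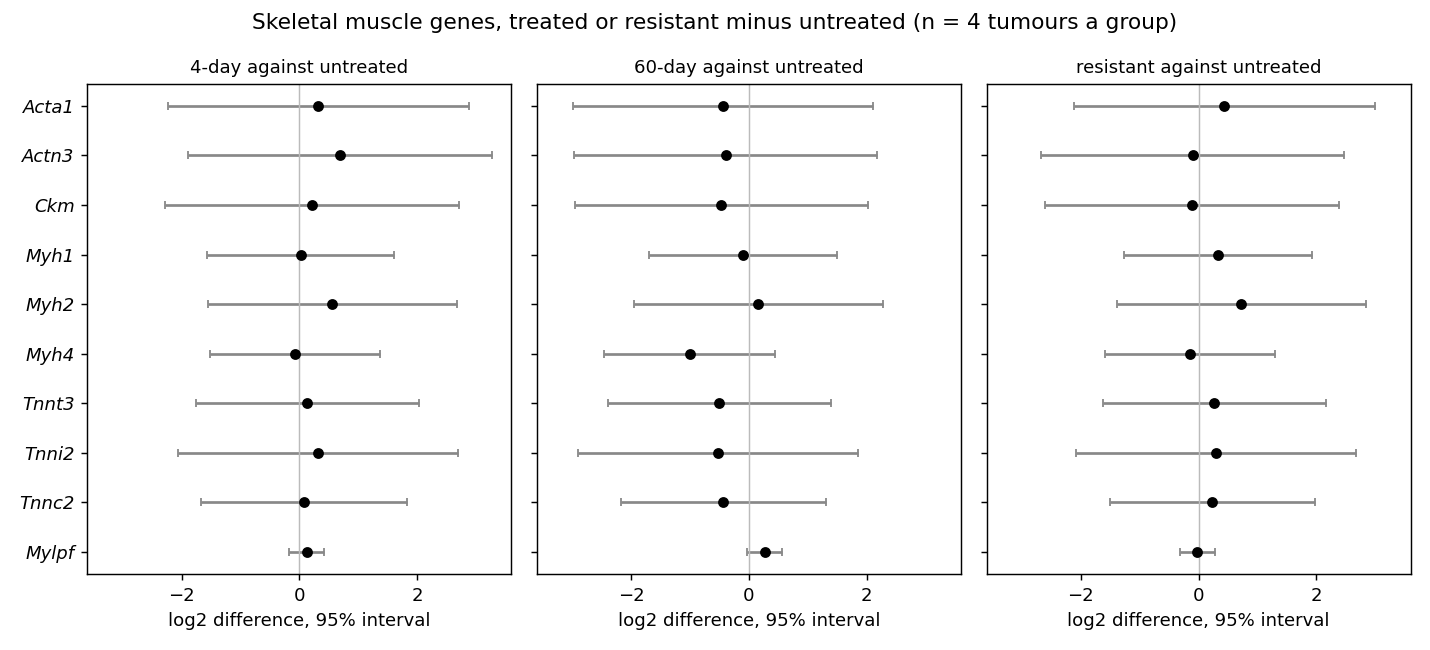
Limma log2 differences (horizontal axis) of each muscle gene (vertical axis) between 4-day, 60-day or resistant tumours and untreated tumours, n = 4 tumours a group, with 95% intervals as bars. Every interval crosses 0, and those of the 9 genes other than Mylpf are several log2 units wide.

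The median difference of the 10 members was 0.18 in 4-day against untreated tumours, -0.44 in 60-day against untreated and 0.25 in resistant against untreated tumours. It was -0.66 in 60-day against 4-day, 0.04 in resistant against 4-day and 0.62 in resistant against 60-day tumours. Over all genes the medians lay between -0.008 and 0.02. The comparisons with untreated tumours share those 4 tumours. Which slide was read decided the sign in 3 of the 6. On slide 1 alone the median was 1.43 in 4-day against untreated tumours and on slide 2 alone -0.90. In 60-day against 4-day tumours it was -1.78 on slide 1 and 0.65 on slide 2, and in resistant against 4-day tumours -0.95 and 1.02. Each slide held 1 or 0 low tumours of a group, and the low 4-day tumour was on slide 2 while the low tumours of the other 3 groups were on slide 1.

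The members varied together over the tumours. Of the 45 pairs of members, the 36 without Mylpf had Pearson correlations from 0.679 to 0.992 over 16 tumours, with a median of 0.897, and Spearman correlations from 0.518 to 0.968. All 36 passed a Benjamini-Hochberg adjusted permutation p of 0.05 by Pearson and 34 by Spearman, and 0 of the 9 pairs with the brighter Mylpf probe passed by either. The highest was between Tnnt3 and Tnni2 (r = 0.992, rho = 0.968, each with a permutation p of 1e-05, the smallest that 100000 permutations can give). Without the 2 tumours farthest from the median of the first gene, r ranged from 0.38 to 0.989 over the 36 pairs. Within slide 1 it ranged from 0.832 to 0.996 and within slide 2 from 0.401 to 0.992. The members were picked as genes of the same tissue, so pairs that pass were likely in advance. How many pairs of other genes would pass was not computed.

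Since a gap divides the tumours, the pairs were also read within the 12 tumours above it. There r ran from -0.234 to 0.945 over the 36 pairs, with a median of 0.627, and 16 of the 36 kept an adjusted permutation p under 0.05. Tnnt3 and Tnni2 kept r = 0.939, Myh1 and Tnnc2 r = 0.945, and Myh1 and Myh2 r = 0.918. Myh4 had r = 0.477 with Myh1 and r = 0.404 with Myh2, both with an adjusted permutation p above 0.05. Acta1 and Actn3 kept r = 0.876. The lowest of the 36 was r = -0.234 between Actn3 and Myh1, and Acta1 and Myh1 had r = -0.134. By Cy5 alone the same 12 tumours gave 0.693 for Acta1 and Myh1 and 0.342 for Actn3 and Myh1, both higher than by the ratio. They gave 0.0944 for Myh1 and Myh4 and 0.186 for Myh2 and Myh4, both lower than by the ratio.

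One tumour had an uneven set of fast myosins. In 60-day tumour 1 Myh4 was at 2.98, the second lowest of the 16, while Myh1 at 5.07 and Myh2 at 4.99 ranked 14 and 13 from the lowest. Myh4 minus Myh1 was -2.09 there, and from -0.16 to 0.90 in the other 15 tumours. In the normalized Cy5 channel this difference was -3.84 in 60-day tumour 1, and from -0.63 to 3.53 in the other 15. Actn3, which accompanies Myh4 in the fastest fibres, was at -0.16 in this tumour, the fifth lowest. That rank was not particular to Actn3, since Acta1, Ckm, Tnnt3 and Tnni2 also ranked 5 from the lowest there, and Tnnc2 ranked 10.

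Of the 10 slow fibre genes, 8 were highest in resistant tumour 3, while Tpm3 was highest in resistant tumour 1 and Casq2 in 4-day tumour 4. Myh7, the slow myosin, was at 3.33 in resistant tumour 3, 1.29 in 60-day tumour 4, 0.90 in 4-day tumour 4 and 0.81 in resistant tumour 2, and at 0.23 or less in the other 12. Tnnt1, the slow troponin T, was at 0.51 in resistant tumour 3 and from -2.79 to -0.76 in the other 15. The slow light chains Myl2, at 2.75, and Myl3, at 2.32, were also highest in resistant tumour 3. Cy5 was above background on 8 of the 16 arrays for Myl2 and on 15 for Myl3. In resistant tumour 3 Myh4 was at 3.58, the fifth lowest, and Cy5 of Myh1 was the highest of all 16. The correlation of Myh7 with the mean of the members was 0.187, and Csrp3 (0.793) and Myoz2 (0.709) of the same list followed the members more closely.

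Of the 10 genes of developing or repairing muscle, 4 were highest in resistant tumour 1, 4 in resistant tumour 2, Mef2c in untreated tumour 1 and Ncam1 in untreated tumour 4. Myh3, the embryonic myosin, was at 2.73 in resistant tumour 1 and from -0.77 to 0.33 in the other 15. Actc1, the actin of the heart and of embryonic muscle, at 1.08, and Myl4, a light chain of the atrium and of embryonic muscle, at 1.24, were also highest there. Myog, the regulator that drives myoblasts into differentiation, was highest at 0.86 in resistant tumour 2 and next at 0.53 in resistant tumour 1. Myh8, the perinatal myosin (r = 0.937), and Myf6, a regulator of muscle fate (r = 0.824), followed the members, as to a lesser degree did Actc1 (r = 0.708), Cdh15 (r = 0.673) and Myog (r = 0.624). Resistant tumour 1 is the one whose array stood apart.

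**Figure D4:**
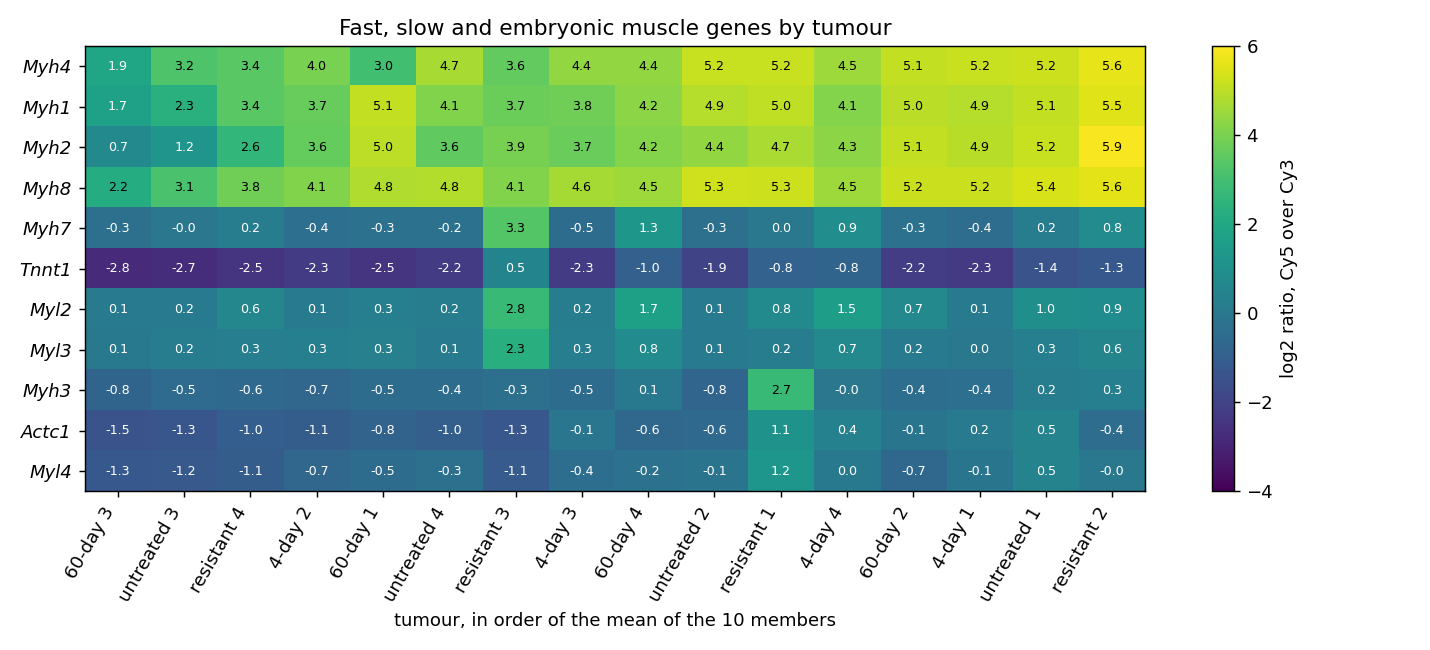
Log2 ratio of Cy5 over Cy3 (colour and printed value) of fast, slow and embryonic muscle genes (rows) in the 16 tumours (columns), ordered by the mean of the 10 members. Myh4 is low beside Myh1 in 60-day tumour 1, Myh7 reaches 3.33 in resistant tumour 3 and Myh3 reaches 2.73 in resistant tumour 1.

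Other muscle genes separated the same 4 tumours. In the list of 18 fast contractile and Z-disc genes, the mean was -0.07 in 60-day tumour 3, 0.38 in untreated tumour 3, 0.71 in resistant tumour 4 and 0.74 in 4-day tumour 2, and from 2.12 to 3.55 in the other 12. The titin gene Ttn ran from 0.02 to 6.03 (r = 0.98 with the mean of the members) and Myl1, the fast essential light chain, from -0.41 to 5.05 (r = 0.982). Tpm2, a tropomyosin, was the exception with r = 0.206. The correlations are descriptions over 16 tumours that share their arrays.

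In the 13 measured genes of calcium handling and excitation the mean was -0.26, 0.007, 0.03 and 0.13 in the same 4 tumours in that order and from 0.91 to 1.75 in the other 12. Pvalb, the calcium buffer of fast fibres (r = 0.979), Ryr1, the calcium release channel (r = 0.941), and Atp2a1, the fast calcium pump (r = 0.921), followed the members. Scn4a, the sodium channel of muscle, had r = -0.0693 and Asph r = -0.318. In the 16 genes of muscle energy supply the mean was -0.74, -0.50, -0.25 and 0.08 in those 4 tumours and from 0.66 to 1.97 in the other 12. Pgam2, the muscle form of a glycolytic enzyme, ran from -2.54 to 2.92 (r = 0.917) and Cox6a2, a muscle subunit of cytochrome c oxidase, from -3.88 to 1.31 (r = 0.974).

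**Figure D5:**
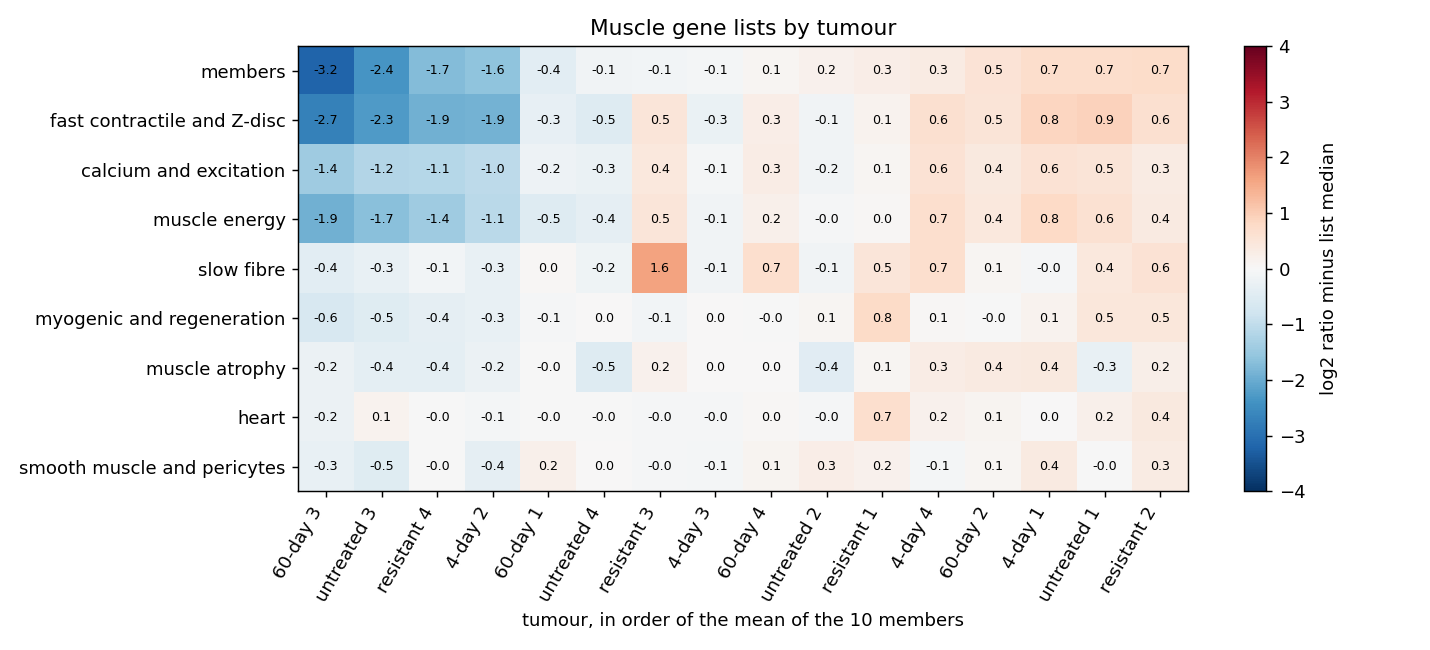
Mean log2 ratio of each muscle gene list (rows) in each tumour (columns, ordered by the mean of the 10 members), minus the median of that list over the tumours (colour and printed value). The 4 columns at the left, 1 tumour of each group, are low in the members, the fast contractile and Z-disc, the calcium and the energy genes. The slow fibre row is highest in resistant tumour 3.

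By group, 0 of the 18 fast contractile and Z-disc genes, 0 of the 10 slow fibre genes, 0 of the 13 calcium genes, 0 of the 16 energy genes and 0 of the 10 genes of myogenesis measured passed limma's adjusted p of 0.05 in any of the 6 comparisons. In the atrophy list, genes known to be induced in wasting muscle, 2 of 9 were higher in 4-day tumours and 1 of 9 in 60-day tumours than in untreated tumours. Klf15, a glucocorticoid-induced factor also active in fat and liver, was at 2.34, 2.56, 2.93 and 1.91 in 4-day tumours and at 0.99, 1.05, 0.75 and 0.64 in untreated tumours (limma difference 1.58, SE 0.34, adjusted p 0.0406). It lost this call in 8 of 16 fits that left out 1 tumour, which were each 4-day tumour in turn, 60-day tumour 3 and untreated tumours 1, 2 and 4, with an adjusted p of up to 0.122, and with the title code as a random block (adjusted p = 0.0861 with an estimated correlation).

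Foxo1, a factor that turns on atrophy genes and acts in many tissues, was at 0.85, 1.22, 1.27 and 1.06 in 4-day tumours and at 0.19, 0.30, 0.58 and 0.43 in untreated tumours (limma difference 0.72, SE 0.12, adjusted p 0.0144). It kept this call in 14 of 16 fits without 1 tumour and lost it without untreated tumour 1 or 2, with an adjusted p of up to 0.0601. In 60-day tumours it was at 0.97, 0.73, 1.01 and 1.12 (difference 0.58, limma adjusted p 0.0391), a call kept in 5 of the 16 such fits, with an adjusted p of up to 0.132 in the rest. That call was lost without 4-day tumour 1 or 4, any 60-day tumour, resistant tumour 2 or 4, or untreated tumour 1, 2 or 4, and with the title code as a random block (adjusted p = 0.159 with an estimated correlation, against 0.046 for the 4-day call). Neither gene followed the members, with r = 0.204 for Klf15 and r = -0.19 for Foxo1. The E3 ligase genes that mark wasting fibres were not called, with Trim63 following the members (r = 0.868) and Fbxo32 not (r = 0.00675).

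Heart and smooth muscle were read as controls for the kind of muscle. In the heart list 5 of 10 genes were measured, and its mean lay between -1.29 and -0.38 in all 16 tumours. Mybpc3 was at -3.66 to -2.66, Tnnt2 at -1.91 to -0.52 and Nppa at -0.456 to -0.249. Tnni3 ran from -0.171 to 0.753 and was not low in the same way. Myl4 ran from -1.27 to 1.24 and had r = 0.692 with the members. In the list of smooth muscle and pericytes the mean was 0.43, 0.24, 0.73 and 0.38 in 60-day tumour 3, untreated tumour 3, resistant tumour 4 and 4-day tumour 2, and from 0.64 to 1.09 in the other 12. Of its 10 genes Des, desmin, which skeletal muscle also makes, had r = 0.899 with the members. The other 9 had r from -0.253 to 0.576, and their mean was 0.553, 0.319, 0.856 and 0.522 in those 4 tumours and from 0.495 to 1.04 in the other 12. The part of this list in the levels of the members was not tested. No gene of either list was called in any comparison.

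The keratinocyte, adipocyte and melanocyte lists did not single out the low tumours. The keratinocyte mean was 4.03, 3.58, 4.56 and 4.61 in 60-day tumour 3, untreated tumour 3, resistant tumour 4 and 4-day tumour 2, and from 1.84 to 4.90 in the other 12. The adipocyte mean was 3.18, 2.44, 2.47 and 1.98 in those tumours and from 1.86 to 4.09 in the other 12. Its median over the 16 tumours was 2.97, so all of those tumours but 60-day tumour 3 lay below it. Correlations of the 10 adipocyte genes with the mean of the members ran from -0.175 for Cidea to 0.614 for Cfd. The melanocyte mean was 2.65, 1.92, 1.50 and 3.48 and from 1.24 to 3.28 in the other 12, with the highest value in the low 4-day tumour. In tests between groups, Pparg (limma difference 1.31, adjusted p 0.0459), Scd1 (1.37, adjusted p 0.0426) and Mitf (0.88, adjusted p 0.0459) were higher in 4-day than in untreated tumours, and Scd1 (1.67, adjusted p 0.0252) and Dgat2l6 (2.41, adjusted p 0.0333) in 60-day than in untreated tumours. Pparg, Scd1 and Dgat2l6 are lipid genes of the sebaceous list and Mitf is the master regulator of pigment cells. The 3 calls at 4 days held in 5, 4 and 6 of the 16 fits without 1 tumour, and the 2 calls at 60 days in 9 and 8, with an adjusted p of up to 0.144 in the rest. With the title code as a random block all 5 calls were lost, with adjusted p = 0.124, 0.109 and 0.112 for Pparg, Scd1 and Mitf at 4 days and 0.124 and 0.147 for Scd1 and Dgat2l6 at 60 days, with an estimated correlation. Each of the 5 calls was lost without untreated tumour 1, 2 or 4. Those of Scd1 and Dgat2l6 at 60 days were also lost without any 60-day tumour, and that of Dgat2l6 without 4-day tumour 1. At 4 days, Pparg and Scd1 were also lost without 4-day tumour 1, 2 or 4, any 60-day tumour or resistant tumour 4, Scd1 without resistant tumour 2, and Mitf without 4-day tumour 1, 3 or 4, 60-day tumour 2, 3 or 4 or resistant tumour 2. Resistant tumour 1 had the lowest mean of the keratinocyte, hair follicle shaft, sebaceous gland, adipocyte and melanocyte lists.

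Beyond the lists of muscle genes, 15765 genes were ranked by the Pearson correlation of their log2 ratio with the mean of the members over the 16 tumours. Among the 10 highest were Cmya5 (0.944), Klhl31 (0.944), Jsrp1 (0.928), Art1 (0.925), Sh3bgr (0.909), Hspb6 (0.905), Rbfox1 (0.901), Des (0.899) and Dusp13 (0.892). Cmya5 ran from 1.11 to 4.98 and Klhl31 from -0.10 to 3.22. Without the 2 tumours farthest from the median, the correlations of these 9 lay between 0.831 and 0.95. The 3 lowest were Fkbp15 (-0.681), Pygo2 (-0.676) and Xlr3b (-0.655), which became -0.227, -0.618 and -0.383 without those 2 tumours.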

How the data were processed

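Total RNA was measured on 16 arrays of 2 colours, with the tumour in Cy5 and the common reference in Cy3. Per the file headers, the scanner files hold spot intensity values with local background, processed intensities and their log10 ratio, and flags of another kind (other), read by Agilent Feature Extraction 10.7.3.1 with annotation on mm9. The deposited value table holds log2 ratios that matched those log10 ratios after a change of base and lacks 21.6% to 40.2% of its values per array.

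Mean intensities were corrected with normexp (offset 50) and the ratio was normalized within arrays by loess, control spots having no weight, in limma 3.58.1 and R 4.3.3. Spots flagged as outliers (0.55%) were set missing, spots of a probe averaged, and probes kept with Cy5 above background on at least 4 of 16 arrays (30486 of 55681). The brightest probe stood for a gene. A limma model with 4 groups of 4 tumours gave 6 comparisons, with Benjamini-Hochberg adjustment over 21985 genes, 0.05 being the threshold. Values of single channels in each tumour were taken after loess and Aquantile-normalized between arrays, so the normalization of each draws on both channels. The pairs, the range and the alternative fit by Cy5 alone used background-corrected Cy5, quantile-normalized between arrays without loess. Arrays have no read depth, and the number of tumours limits precision. Of each list the text names called genes, otherwise bright ones or, chosen after their values were seen, genes with a distinct pattern, and of genes outside the muscle lists the 10 highest and 3 lowest correlations, of which 1 of the highest is not reported here. The members and the lists were chosen with earlier results of these data known. The fit was tested on simulated data. Promoters are from RefSeq on GRCm38.p6.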

Additional observations from a re-analysis of the deposited data

Results flagged for a closer look

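A tumour stood far from the other 3 of its group, by the gap to its nearest neighbour over the range of the group (above Dixon's critical value), in 6 of 40 combinations of gene and group. Chance flags about 1 group in 20. Acta1 was low in 4-day tumour 2, at 0.0115, and low in resistant tumour 4, at 0.66. Ckm was low in resistant tumour 4, at 1.11. Tnnt3 at -0.44 and Tnnc2 at 0.34 were low in 60-day tumour 3. Mylpf was high in untreated tumour 3, at 0.11. Of these 6, the 5 that are low fall in 3 of the 4 tumours with the least muscle RNA. The causes were not tested.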

How the results depend on the processing

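The differences were recomputed under 30 alternatives, which gave 1782 values for the 60 member differences, of which 171 had the other sign and 1 was called. That call was Mylpf in 60-day against untreated tumours with array weights (difference 0.32, limma adjusted p 0.0495). So 1 of 10 members was called there, where 4890 of the 21985 genes tested were called. The cause was not tested. The median member difference of 60-day against 4-day tumours was 0.652 on slide 2 alone. The range of the mean of the members over tumours, 3.93, was 5.57 by Cy5 alone, 2.34 on slide 2 alone, which holds 1 of the 4 low tumours, and 3.01 to 4.40 under the other alternatives. In the deposited values, 6 of 6 pairs passed, since 4 members had values in all 16 tumours. Pairs under 5 other settings were added after the data were seen.

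Leaving out each tumour in turn, 0 members were called in each comparison. The median member difference then lay between -0.515 and 0.674 in 4-day against untreated tumours, -1.2 and 0.507 in 60-day against untreated, -0.451 and 0.662 in resistant against untreated, -1.17 and 0.298 in 60-day against 4-day, -0.322 and 0.588 in resistant against 4-day, and -0.277 and 1.13 in resistant against 60-day tumours. The range lay between 3.08, without 60-day tumour 3, and 3.93.

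Over all genes the count of calls depended on the setting: 295 in 4-day against untreated tumours became 12 with median centring, 45 without untreated tumour 4, 54 with the title code as a random block and 4228 with array weights; 180 in 60-day against untreated became 12, 23, 14 and 4890; and 4 in resistant against untreated became 1, 2, 2 and 992. Klf15 was called in 17 of 30 alternatives, and Foxo1 in 23 at 4 days and 12 at 60 days. Slide alone left 2 tumours a group. Dim signal limits Mylpf, and Ckm in the low tumours.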
